A study of Mus musculus with 5 samples.

Results

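The genes described are 10 components of the extracellular part of Wnt signalling, taken by name from a list of the Wnt ligands Wnt1, Wnt4, Wnt5a, Wnt7a and Wnt7b, the secreted frizzled-related proteins Sfrp1, Sfrp2 and Sfrp5, and the dickkopf proteins Dkk2 and Dkk3. They are 10 of the 20178 transcripts measured, and each was matched to 1 transcript by its symbol. RNA-seq was read from 5 libraries of cultured cells from mice of the ICR strain, with 1 library per condition and no replicate. Astrocyte progenitor cells of postnatal day 5 at passage 2 gave 4 of the libraries, of which 1 came from the cortex (Ctx) and 3 from the ventral midbrain (VM). The remaining library was labelled as cortical neural progenitor cells (Ctx NPC) of embryonic day 12, also at passage 2. One VM library had no virus in its labels, and the other two were titled VM C and VM NF and carried lentiviruses.

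In VM C and VM NF the labels contradict each other. The titles read C and NF, while the treatment entries give the Nurr1 and Foxa2 lentiviruses for VM C and the mock virus for VM NF. The libraries are therefore called by their titles throughout. In the study's methods the viruses carried mouse Nurr1 or rat Foxa2 cDNA behind a CMV promoter, which is not restricted to 1 cell type, and the control was the empty vector. Nr4a2, the gene of Nurr1, had 93 reads in Ctx NPC, 106 in Ctx astrocytes, 81 in VM astrocytes, 53 in VM C and 183 in VM NF. For Foxa2 the counts were 0, 1, 68, 15 and 216 reads. VM NF was thus the highest library for both, which goes with the titles and against the treatment entries. Reads from the virus and from the cells' own gene cannot be told apart. VM C lay below the VM library without virus for both genes. By the 2-fold rule given below, 0.322% of transcripts were higher and 0.668% lower in VM NF than in the VM library without virus. In VM C 7.30% were higher and 8.48% lower, so VM NF was the closer of both to that library. These values do not settle which labels are right. If the treatment entries held instead, VM C and VM NF would exchange places, also in the comparisons with the VM library without virus, and every ratio of VM NF to VM C given here would change its sign as a ratio of Nurr1 and Foxa2 virus to mock virus.

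Wnt ligands are lipid-modified secreted proteins that bind Frizzled receptors and their LRP5 or LRP6 co-receptors, and through them stabilise β-catenin or act on branches that do not need it. Secreted frizzled-related proteins carry a Frizzled-like domain that binds Wnt ligands outside the cell, whereas dickkopf proteins typically act at the co-receptors. In the midbrain, Wnt1 and Wnt5a are known for their part in the development of dopamine neurons, and glia are among the sources of Wnt factors there.

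Levels are given as FPKM, the reads per kilobase of transcript scaled to the library's depth, which allows a comparison between genes. Differences between libraries are log2 ratios of counts per library total. Library totals lay between 20010818 and 22554835 reads. A count of 3 reads or fewer was treated as too low to measure, and 3 reads amounted to 0.133 to 0.150 CPM (counts scaled to the usual unit of library depth). Intervals are exact 95% intervals and cover counting error only. PCR copies are not independent molecules, so the intervals can be too narrow even for that error. No test between conditions was possible with 1 library each, and culture, library and condition cannot be told apart. A gene was counted as higher or lower at 2-fold when FPKM was above 1 in at least 1 of both libraries. In such bulk samples, fewer cells of a type and less RNA per cell cannot be told apart.

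The libraries also differed in the summed levels of cell type markers. The library labelled Ctx NPC held summed levels of 3352 FPKM for 10 oligodendrocyte markers, against 138 FPKM in Ctx astrocytes, and 3493 against 1196 FPKM for 10 astrocyte markers. These values go against a library of progenitors alone. The 10 progenitor markers summed to 4186 FPKM there, 4819 in Ctx astrocytes and 3013 to 3525 in the VM libraries, so they did not set Ctx NPC apart, and Vim alone gave 1868 and 4180.4 FPKM in the Ctx libraries. The 6 forebrain markers summed to 87.5 and 128 FPKM in the Ctx libraries and to between 4.98 and 8.89 FPKM in the VM libraries, and 9 midbrain markers to 3.87 and 1.77 against 13.0 to 31.9 FPKM. The 12 microglial markers summed to 14.4 FPKM in Ctx NPC, 85.1 in Ctx astrocytes, 212 in VM astrocytes, 766 in VM C and 151 in VM NF.

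The 250 bases before the start used in the RefSeq promoter table are shown for Wnt4 and Dkk2, because these members differed in opposite directions between VM C and the VM library without virus and had the highest and the lowest CpG number among the 6 members with a promoter entry in RefSeq. Both are 5′ to 3′ on the plus strand of GRCm38.p6, and capitals mark CpG dinucleotides and the letters TATAAA. The Wnt4 stretch is chr4:137277385-137277634 and the Dkk2 stretch is chr3:132085042-132085291. For Wnt4 the start of the table, 137277635, is the first base of the annotated gene, while for Dkk2 the start, 132085292, lies 26 bases inside it.
Wnt4: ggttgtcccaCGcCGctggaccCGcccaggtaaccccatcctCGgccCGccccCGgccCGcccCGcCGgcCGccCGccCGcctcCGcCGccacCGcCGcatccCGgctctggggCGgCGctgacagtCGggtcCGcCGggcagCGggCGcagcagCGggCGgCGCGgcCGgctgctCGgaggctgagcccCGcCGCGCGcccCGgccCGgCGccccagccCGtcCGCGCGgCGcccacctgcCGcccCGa
Dkk2: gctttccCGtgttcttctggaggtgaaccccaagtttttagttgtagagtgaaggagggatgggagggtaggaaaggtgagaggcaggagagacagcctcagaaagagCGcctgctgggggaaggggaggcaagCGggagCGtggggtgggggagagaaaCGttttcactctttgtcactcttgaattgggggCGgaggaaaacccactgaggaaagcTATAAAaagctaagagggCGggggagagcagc

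The Wnt4 stretch held 44 CpG dinucleotides and the Dkk2 stretch 7. Over the full windows of 300 bases, which reach from 250 bases before to 50 bases after the start, CpG numbers were 51 for Wnt4, 42 for Wnt7a, 26 for Wnt1, 22 for Sfrp2, 15 for Sfrp5 and 11 for Dkk2, against a median of 7 over all 32851 windows. GC content ran from 57.7% in Dkk2 to 84.3% in Wnt4, against a median of 52.7%. For Sfrp2 the start used lies 571 bases inside the annotated gene, so its whole window lies within that gene and not before it. Motifs were searched on both strands, namely the Nurr1 response element AAAGGTCA, the FOXA letters TGTTTAC or TATTTAC, the TCF/LEF letters CTTTGAA or CTTTGAT, and TATAAA. They are present in 1.51%, 6.54%, 8.65% and 13.6% of all windows. Among the members a single match was found, a TATAAA in Dkk2 whose first letter lies 32 bases before that start. Wnt5a, Wnt7b, Sfrp1 and Dkk3 had no promoter entry.

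Among the 5 ligands of the list, Wnt7b, Wnt7a and Wnt5a were the abundant transcripts and Wnt1 was close to absent from the counts. Wnt1 (NM_021279, chromosome 15, 98789857 to 98793830, GRCm38.p6), the ligand that patterns the midbrain, had 0 reads in Ctx NPC, 3 in Ctx astrocytes, 3 in VM astrocytes, 1 in VM C and 4 in VM NF. No order of the libraries could be read from these counts at this depth. Wnt10b, which lies 11650 bases from Wnt1 on the same chromosome, had 0, 38, 114, 15 and 114 reads in the same order.

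Wnt4 (NM_009523, chromosome 4, 137277635 to 137299501), a ligand known from kidney and gonad development, stood at 0.379 FPKM in Ctx NPC, 1.69 in Ctx astrocytes, 2.91 in VM astrocytes, 1.42 in VM C and 2.47 in VM NF. The VM library and VM NF were the highest and did not differ beyond counting error, nor did Ctx astrocytes and VM C. Ctx NPC was the lowest of all.

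Wnt5a (NM_009524, chromosome 14, 28504543 to 28527448), the typical ligand of the β-catenin-independent branch, had 9.09 FPKM in Ctx NPC, 11.8 in Ctx astrocytes, 20.1 in VM astrocytes, 20.1 in VM C and 19.9 in VM NF. The VM libraries could not be ordered beyond counting error, and all of them lay above both Ctx libraries. The highest level was 2.22 times the lowest, the narrowest range among the members detected in every library above 1 FPKM.

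Wnt7a (NM_009527, chromosome 6, 91363981 to 91411353), which with Wnt7b acts on brain endothelium, had 22.2 FPKM in Ctx NPC, 27.8 in Ctx astrocytes, 7.20 in VM astrocytes, 4.14 in VM C and 10.3 in VM NF. It was the only ligand of the 5 with both Ctx libraries above all VM libraries. Each step of its order was larger than counting error.

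Wnt7b (NM_001163634, chromosome 15, 85535437 to 85581821) had 16.1 FPKM in Ctx NPC, 34.5 in Ctx astrocytes, 25.8 in VM astrocytes, 12.2 in VM C and 26.1 in VM NF. VM astrocytes and VM NF were level within counting error, and VM C was the lowest library. The ratio of Wnt7a to Wnt7b per length was 1.38 in Ctx NPC (95% interval 1.27 to 1.49) and 0.805 in Ctx astrocytes (0.758 to 0.855). In the VM libraries it was 0.279 without virus (0.252 to 0.309), 0.341 in VM C (0.298 to 0.388) and 0.396 in VM NF (0.362 to 0.433).

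Sfrp1 (NM_013834, chromosome 8, 23411383 to 23449632), a Wnt-binding inhibitor, was the most abundant member in the astrocyte libraries. Its level was 14.3 FPKM in Ctx NPC, 52.1 in Ctx astrocytes, 149 in VM astrocytes, 31.9 in VM C and 151 in VM NF. By FPKM it ranked 425 of 20178 transcripts in VM astrocytes and 360 in VM NF, but 2658 in VM C, 1572 in Ctx astrocytes and 5858 in Ctx NPC. VM astrocytes and VM NF did not differ beyond counting error, and every other step in the order did.

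Sfrp2 (NM_009144, chromosome 3, 83765750 to 83774314), a close relative of Sfrp1, followed another order. It had 8.88 FPKM in Ctx NPC, 1.51 in Ctx astrocytes, 1.17 in VM astrocytes, 0.288 in VM C and 1.23 in VM NF, resting on 356, 65, 50, 13 and 50 reads. Ctx NPC was apart at the top and VM C apart at the bottom, with the other libraries not separable. Sfrp5 (NM_018780, chromosome 19, 42197971 to 42202252), another inhibitor of the family, had 9, 9, 6, 2 and 3 reads in the same order of libraries and stayed below 1 FPKM in all of them.

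Dkk2 (NM_020265, chromosome 3, 132085266 to 132180304), a ligand of the LRP co-receptors, spanned the widest range of levels among the members that passed 1 FPKM. It had 1 read in Ctx NPC, 191 in Ctx astrocytes, 824 in VM astrocytes, 1377 in VM C and 676 in VM NF, which is 0.0135, 2.40, 10.4, 16.5 and 8.96 FPKM. VM C was the highest library and Ctx NPC the lowest, and each step of the order was larger than counting error.

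Dkk3 (NM_015814, chromosome 7, 112116019 to 112159482), a divergent family member whose action on Wnt signalling is debated, had 19.0 FPKM in Ctx NPC, 19.0 in Ctx astrocytes, 47.2 in VM astrocytes, 30.8 in VM C and 56.7 in VM NF. All VM libraries lay above the Ctx libraries, which were level with each other. VM NF was above VM astrocytes by more than counting error.

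**Figure D1:**
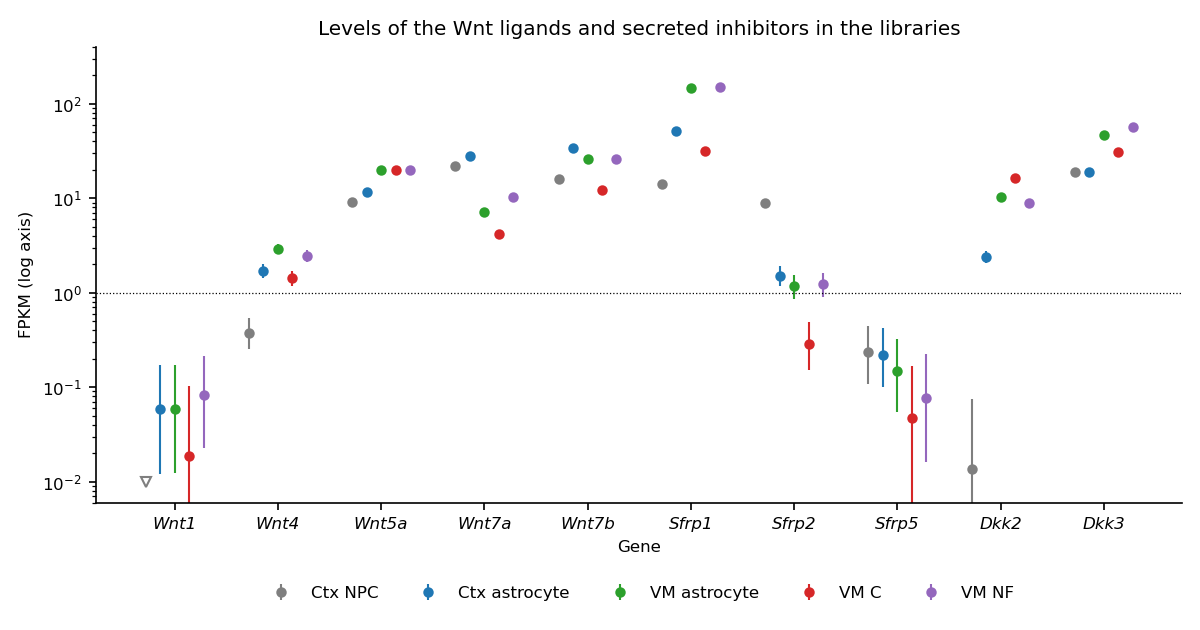
FPKM (log axis) of each member in the 5 libraries, with exact 95% counting intervals as bars; bars that run below the axis are cut there, the open triangle is a level of 0 and the dotted line is 1 FPKM. Sfrp1 reached 149 and 151 FPKM in VM astrocytes and VM NF, while Wnt1 and Sfrp5 stayed under 1 FPKM in every library.

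Among the 10 members, the summed level of the secreted inhibitors relative to the ligands also differed between the libraries. The 5 inhibitors summed to 42.4 FPKM in Ctx NPC, 75.2 in Ctx astrocytes, 208 in VM astrocytes, 79.5 in VM C and 218 in VM NF. The 5 ligands summed to 47.7, 75.9, 56.1, 37.9 and 58.8 FPKM in the same order. Inhibitors over ligands was thus 0.889 in Ctx NPC, 0.992 in Ctx astrocytes, 3.70 in VM astrocytes, 2.10 in VM C and 3.71 in VM NF. These ratios leave out 14 other ligands and 8 other secreted inhibitors, among them Sfrp4, Wif1 and Notum. They also count Dkk3, whose action is debated, and are not ratios of the whole families. Sfrp1 carried most of the difference within its family, since it held 55.4% of the summed Sfrp level in Ctx NPC, 66.6% in Ctx astrocytes, 95.8% in VM astrocytes, 83.7% in VM C and 95.3% in VM NF. In Ctx NPC, Sfrp2 held 34.5% of it, and in Ctx astrocytes Sfrp4, a relative outside the list, held 30.3%.

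The Wnt ligand pool as a whole, over all 19 ligand genes, summed to 63.0 FPKM in Ctx NPC, 159 in Ctx astrocytes, 120.5 in VM astrocytes, 65.4 in VM C and 125 in VM NF. The 5 ligands described here made up 75.7% of it in Ctx NPC, 47.8% in Ctx astrocytes, 46.5% in VM astrocytes, 57.9% in VM C and 47.2% in VM NF. Wnt7a alone made up 35.2% of the pool in Ctx NPC and 17.5% in Ctx astrocytes, against 5.98% in VM astrocytes, 6.33% in VM C and 8.28% in VM NF. Wnt5a made up 30.8% in VM C, where its own level was that of VM astrocytes and the pool was smaller, against 16.7% in VM astrocytes and 15.9% in VM NF. Wnt7b stayed between 18.6% and 25.5% in all libraries. Outside the list, Wnt5b was the largest ligand of Ctx astrocytes with 32.1%, and Wnt2 reached 13.8% in VM C.

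**Figure D2:**
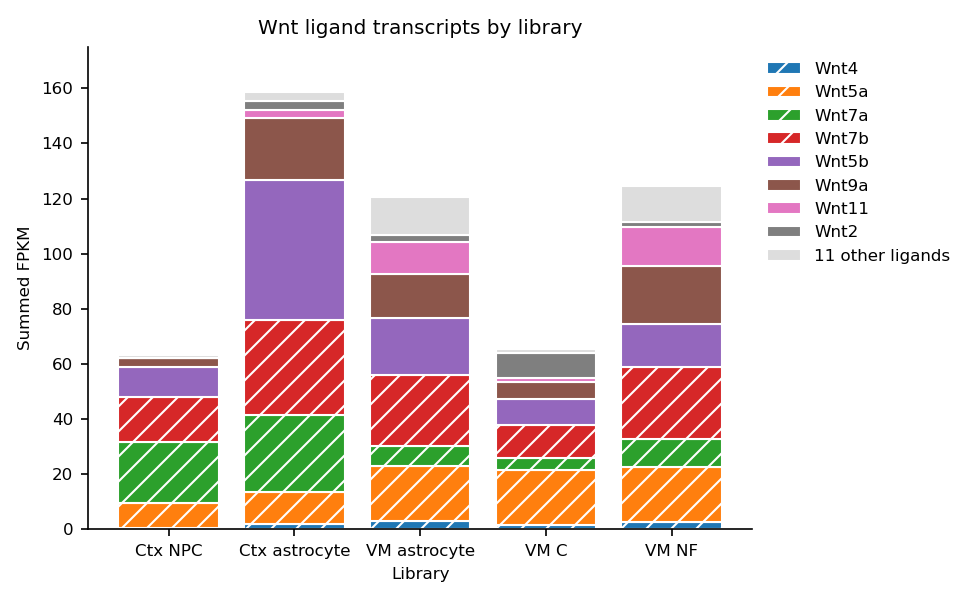
Summed FPKM of the 19 Wnt ligand genes in each library, stacked by gene, with hatched segments for the ligands described here. The pool was 120.5 FPKM in VM astrocytes, 65.4 FPKM in VM C and 125 FPKM in VM NF.

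Ctx astrocytes were compared with VM astrocytes without virus to ask how the region of origin relates to these factors. Wnt7a was the member higher in Ctx astrocytes at 2-fold, with a log2 ratio of 1.95 (95% interval 1.80 to 2.09), or 3.86-fold. On the VM side stood the inhibitors Dkk2, at −2.12 (−2.35 to −1.89), Sfrp1, at −1.51 (−1.56 to −1.47), and Dkk3, at −1.31 (−1.40 to −1.22), which were 4.34-fold, 2.86-fold and 2.48-fold lower in Ctx astrocytes. Wnt4 and Wnt5a, at −0.78 (−1.09 to −0.47) and −0.77 (−0.88 to −0.66), and Wnt7b, at 0.42 (0.34 to 0.51), stayed within 2-fold. Sfrp2, at 0.37 (−0.18 to 0.93), could not be told from no difference at this depth.

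Of the 10 members, 8 passed the FPKM filter, 1 was higher and 3 were lower in Ctx astrocytes, and Wnt1 and Sfrp5 did not pass. Over all 12553 transcripts that passed, 4.49% were higher and 9.89% lower. The median log2 ratio was −0.77 over the members and −0.05 over all transcripts. The other 76 Wnt pathway genes gave 4 higher and 14 lower among 64 that passed. The lower ones included the ligands Wnt3, Wnt6, Wnt10a, Wnt10b and Wnt11 and the ligand carrier Wls, and the higher ones included Wnt5b and Sfrp4. Also lower were the secreted inhibitors Frzb and Wif1 and the secreted agonist Rspo2. Wif1 had 2 reads in Ctx astrocytes and 414 in VM astrocytes, and Rspo2 had 0 and 80. Of 10 genes known as targets of β-catenin signalling, Tnfrsf19 was higher and Sp5, Apcdd1 and Myc were lower, while Axin2, the most used readout, was within 2-fold at −0.76 (−0.92 to −0.61). The 10 meningeal fibroblast markers summed to 265 FPKM in Ctx and 529.6 in VM astrocytes, with none at 0 reads, and 9 of 10 were lower in the Ctx library. Microglial markers summed to 85.1 and 212 FPKM, with none at 0 and 12 of 12 lower in Ctx. Astrocyte markers went the other way, with sums of 1196 and 567 FPKM, 8 of 10 higher in Ctx and 6 of them at 2-fold. The ependymal and choroid plexus markers summed to 195 and 181 FPKM, with 7 of 10 lower in Ctx. Of these, Tmem212, Ttr, Kcnj13 and Otx2 were at 0 reads there. The part of these cell types in the Wnt differences was not tested.

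The library labelled Ctx NPC was compared with Ctx astrocytes, the other library of that region. Sfrp2 was the member higher in Ctx NPC, with a log2 ratio of 2.54 (2.17 to 2.96), or 5.87-fold. Wnt4 was 4.47-fold lower, at −2.14 (−2.79 to −1.58), Sfrp1 was 3.65-fold lower, at −1.87 (−1.96 to −1.78), and Wnt7b was 2.15-fold lower, at −1.10 with an interval from −1.21 to the 2-fold limit. Dkk2 had 1 read against 191, a 178-fold lower ratio with a counting interval from 31.6 to 7079. This ratio rests on a count within the 3 reads or fewer that were treated as too low to measure. Its log2 ratio was −6.91 with 0.5 reads added and −4.97 with 5. Wnt5a and Wnt7a were within 2-fold, at −0.37 (−0.51 to −0.24) and −0.33 (−0.43 to −0.23).

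Dkk3 was level at 0.00 (−0.11 to 0.11) per library total, and at −0.18 with edgeR's TMM or DESeq2 size factors and −0.17 with upper-quartile scaling. These scalings moved the median of all transcripts by −0.18, −0.18 and −0.17, so that this level ratio belongs to the scaling used. Among the members, 1 was higher and 4 were lower of 8 that passed, where 20.1% of 12623 transcripts were higher and 17.9% lower. The median was −0.74 for the members and 0.19 for all transcripts. Of the other 76 pathway genes 54 passed, with 7 higher and 22 lower, and the lower ones included the ligands Wnt2, Wnt5b, Wnt9a and Wnt11. Oligodendrocyte markers were 2-fold higher in Ctx NPC for 10 of 10 genes and neuron markers for 8 of 10, with none at 0 in either library. The neuron markers summed to 408 FPKM in Ctx NPC and 279 in Ctx astrocytes. Of the 12 microglial markers 9 were 2-fold lower, and Trem2 was at 0 in Ctx NPC, while 5 of 10 meningeal fibroblast markers were 2-fold lower and 2 higher, with sums of 81.1 and 265 FPKM. The part of these differences in the Wnt values was not tested.

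VM C was set against the VM library without virus, and the larger differences lay in the Sfrp genes and in the ligands other than Wnt5a. Sfrp1 was 4.67-fold lower in VM C, at −2.22 (−2.28 to −2.17), and Sfrp2 was 4.07-fold lower, at −1.98 (−3.03 to −1.12). Wnt7b was 2.12-fold lower, at −1.09 (−1.20 to −0.97), and Wnt4 was 2.04-fold lower, at −1.03 (−1.35 to −0.71). Both of these intervals reach within 2-fold. Wnt7a, at −0.80 (−1.01 to −0.59), and Dkk3, at −0.61 (−0.69 to −0.54), were lower by less than 2-fold. Wnt5a was level at 0.00 (−0.09 to 0.09), and Dkk2 lay in the other direction at 0.66 (0.53 to 0.78).

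No member was counted as higher in VM C, where 7.30% of 12703 transcripts were, and 4 of the 8 that passed were lower, where 8.48% of all transcripts were. The count of 4 became 3, without Wnt4, with DESeq2 size factors or with 5 reads added in place of 0.5. It was also 3 with FPKM above 1 required in both libraries, a level that Sfrp2, at 0.288 FPKM in VM C, did not reach. The medians were −0.91 for the members and −0.01 for all transcripts. Of the 14 other ligands 8 passed, and 7 of them were lower (Wnt3, Wnt5b, Wnt6, Wnt9a, Wnt10a, Wnt10b and Wnt11), the largest difference being Wnt10a at −4.17 (−5.49 to −3.24). Wnt2, with 431 reads in VM C and 124 in VM astrocytes, was the ligand that was higher, at 1.71 (1.42 to 2.01). All 17 receptors passed the filter and none reached 2-fold, and the same held for the 13 intracellular components. Of the 10 target genes, Nkd1, Nkd2 and Sp5 were lower, at −2.47 (−2.82 to −2.16), −2.01 (−2.23 to −1.81) and −1.88 (−2.82 to −1.10), and Axin2 was within 2-fold at −0.67 (−0.82 to −0.52).

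Marker genes of other cells moved in this comparison as well. The 12 microglial markers summed to 766 FPKM in VM C and 212 in VM astrocytes, with 12 of 12 higher and none at 0 reads. The 10 ependymal and choroid plexus markers summed to 32.3 and 181 FPKM, with 10 of 10 lower in VM C and none at 0. Midbrain markers summed to 13.0 and 31.9 FPKM, and Pax5 was at 0 in VM C. Of the oligodendrocyte markers 9 of 10 were higher in VM C, 7 at 2-fold, with sums of 182 and 117 FPKM. Of the neuron markers 8 of 10 were higher, 4 at 2-fold, although their sum was 375 FPKM in VM C and 448 in VM astrocytes. Astrocyte markers summed to 466 and 567 FPKM, with 1 of 10 higher and 1 lower at 2-fold. Meningeal fibroblast markers summed to 383 and 529.6 FPKM, with 1 of 10 higher and 2 lower at 2-fold. Endothelial and mural markers summed to 248 and 499 FPKM, with 1 of 10 higher and 3 lower at 2-fold. Of the progenitor markers, Hes5 and Neurog2 were at 0 in VM C, against 3 and 2 reads in VM astrocytes. The part of these markers in the Wnt differences was not tested.

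**Figure D3:**
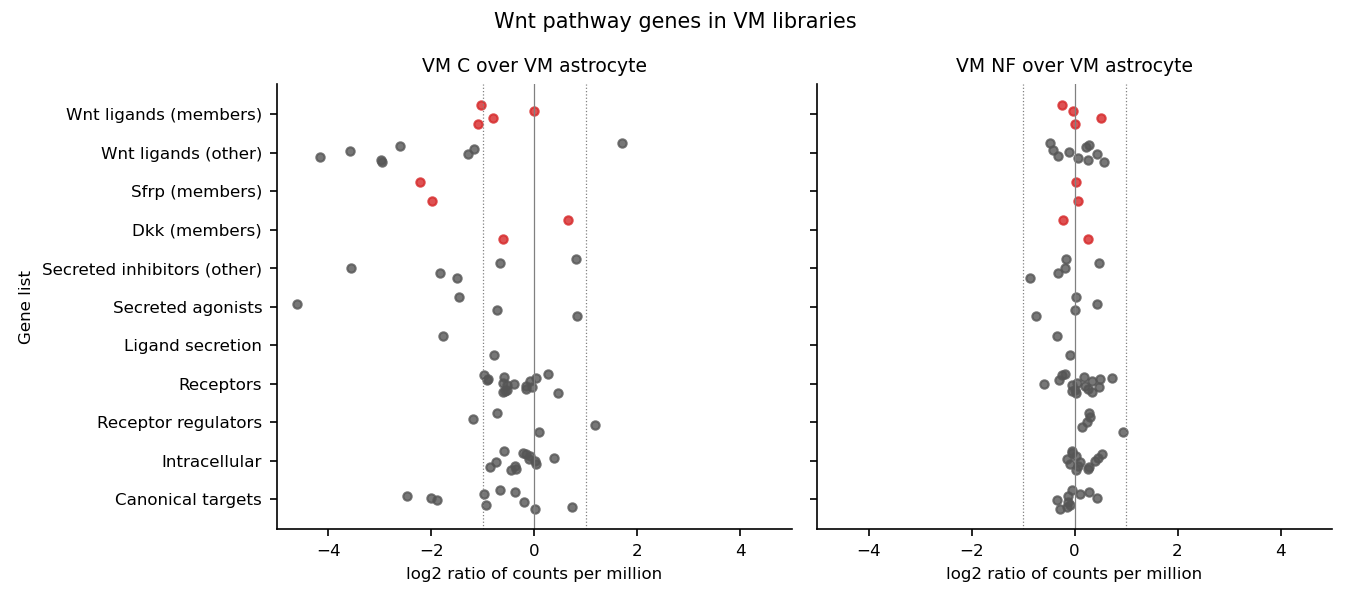
The log2 ratio of CPM for Wnt pathway genes with FPKM above 1 in at least 1 library, by list, with members in red, other genes in grey and dotted lines at 2-fold. In VM C over VM astrocytes 4 members and 17 other genes lay at or below the lower line, and in VM NF over VM astrocytes no gene reached either line.

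VM NF was close to the VM library without virus in these genes. None of the 8 members that passed reached 2-fold, where 0.322% of 12428 transcripts were higher and 0.668% lower. Wnt7a had the largest ratio, 0.52 (0.35 to 0.69), and the intervals of Dkk3 at 0.27 (0.20 to 0.33) and Dkk2 at −0.22 (−0.37 to −0.07) also left out 0. The intervals of the other members that passed included 0, namely Wnt4 at −0.24 (−0.52 to 0.04), Wnt5a at −0.02 (−0.11 to 0.08), Wnt7b at 0.01 (−0.08 to 0.11), Sfrp1 at 0.02 (−0.02 to 0.05) and Sfrp2 at 0.07 (−0.53 to 0.66). The medians were 0.02 for the members and −0.05 for all transcripts. Of the other 76 pathway genes 66 passed and 0 reached 2-fold. In these libraries Nr4a2 and Foxa2 differed by 1.24 (0.86 to 1.64) and 1.73 (1.33 to 2.15). The microglial markers summed to 151 FPKM in VM NF and 212 in VM astrocytes, with 11 of 12 lower, and the oligodendrocyte markers to 95.1 and 117 FPKM, with 9 of 10 lower and 3 at 2-fold.

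VM NF was last set against VM C, the comparison of both lentivirus libraries. It shares VM NF and VM C with the comparisons above, and its values are therefore not independent of them. Sfrp1 was 4.73-fold higher in VM NF, at 2.24 (2.19 to 2.30), and Sfrp2 4.27-fold, at 2.05 (1.19 to 3.10). Wnt7a was 2.49-fold higher, at 1.31 (1.12 to 1.52), and Wnt7b 2.14-fold, at 1.10 (0.99 to 1.21). Wnt4, at 0.79 (0.46 to 1.13), and Dkk3, at 0.88 (0.81 to 0.96), were higher by less than 2-fold, Wnt5a was level at −0.02 (−0.11 to 0.07), and Dkk2 was lower at −0.88 (−1.01 to −0.74).

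Of the members, 4 of the 8 that passed were higher in VM NF and 0 lower, where 9.53% and 9.73% of 12701 transcripts were higher and lower. The medians were 0.99 for the members and −0.02 for all transcripts. Of the other 76 pathway genes 64 passed, 22 higher and 2 lower (Wnt2 and Ndp). The higher ones included 8 ligands and, among the 10 targets, Tcf7, Nkd1, Nkd2 and Sp5. The microglial markers summed to 151 FPKM in VM NF and 766 in VM C, with 12 of 12 lower in VM NF, and the ependymal and choroid plexus markers to 166 and 32.3 FPKM, with 10 of 10 higher. Of the oligodendrocyte markers 9 of 10 were lower in VM NF, 7 at 2-fold, and of the neuron markers 8 of 10, with 4 at 2-fold lower and 1 higher. No marker of these lists was at 0 reads, and their part in the Wnt differences was not tested.

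**Figure D4:**
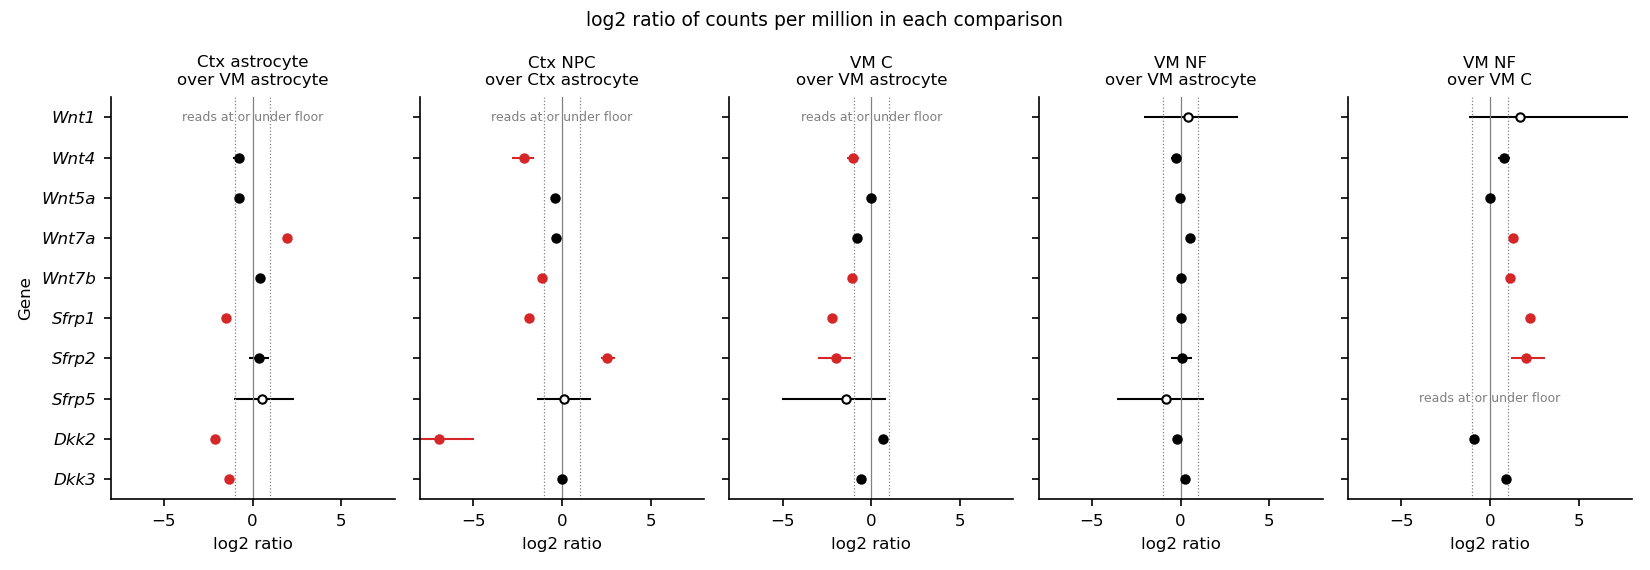
The log2 ratio of CPM of each member in the 5 comparisons with exact 95% counting intervals, in red where 2-fold was reached with FPKM above 1, and open where FPKM was 1 or less in both libraries; dotted lines mark 2-fold and intervals beyond the axis are cut. In VM NF over VM astrocytes all members that passed lay between −0.24 and 0.52.

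**Figure D5:**
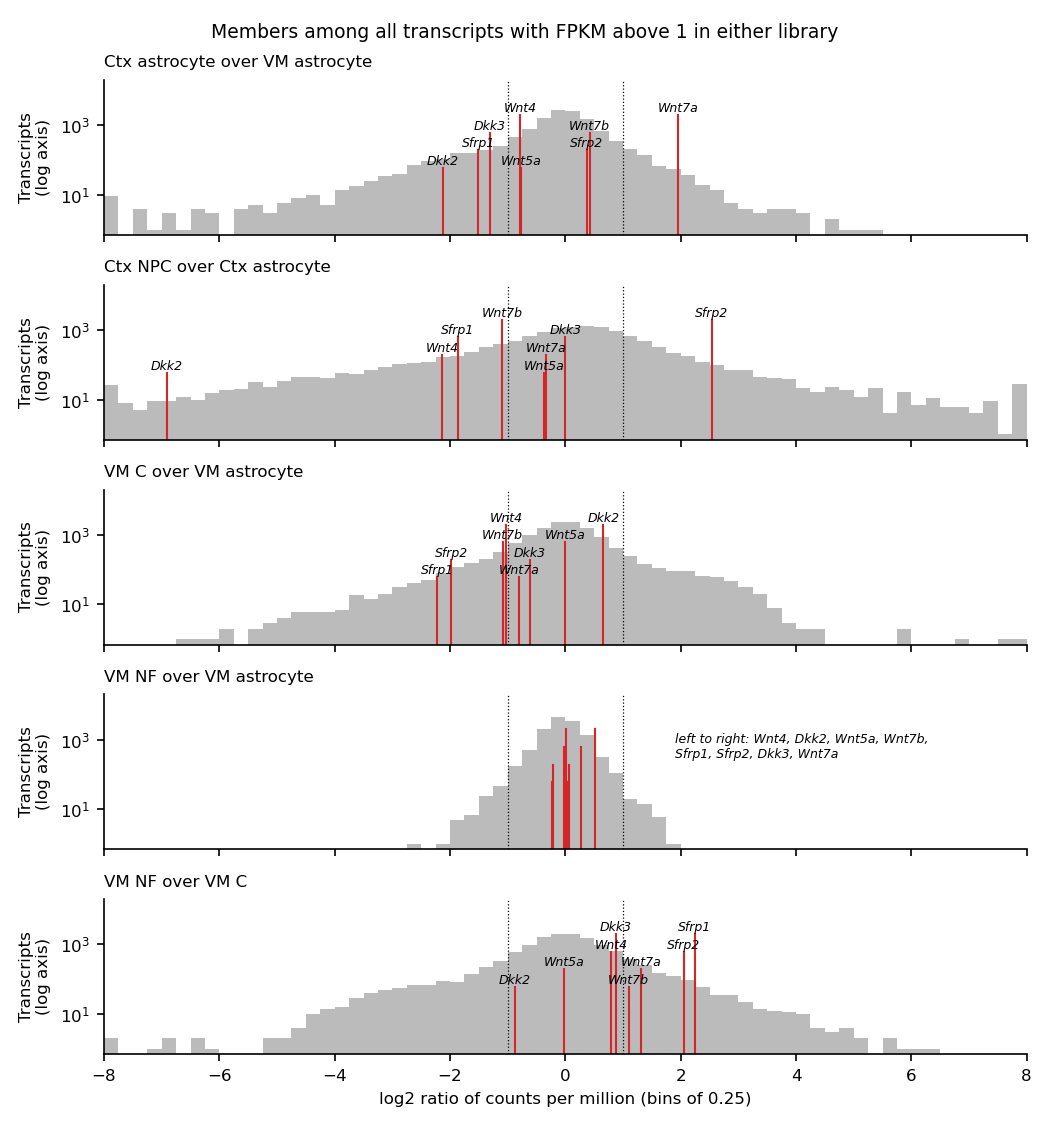
The number of transcripts (log axis) by log2 ratio in bins of 0.25 for the 5 comparisons, with red lines for the members, whose heights have no meaning; the outermost bins also hold values beyond them. Sfrp1 lay at −2.22 in VM C over VM astrocytes and at 2.24 in VM NF over VM C.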

How the data were processed

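RNA-seq of 5 cultured mouse cell libraries was analysed from the tables the authors deposited. In the study's methods, reads were trimmed at a quality score of 20, mapped with STAR and counted with HTSeq-count on exons of RefSeq-annotated genes. The methods name the mm10 build and the submitters' processing notes mm9, with STAR, HTSeq, DESeq and bcl2fastq 1.8.4, so the build used for the counts is not settled. Coordinates printed here come from a RefSeq table on GRCm38.p6, through which 19997 of 20178 transcripts received a symbol. The counts the authors deposited are whole numbers of reads and were not normalized. The deposited FPKM values were recomputed from the counts by the same formula within a relative difference of 4.09e-05. How reads with several matches or strand were treated is not given in the sources used here. One row per file that named no gene was left out. No pair of libraries was identical.

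Counts were divided by library totals (20010818 to 22554835 reads), and the ratio of both libraries was put on the log2 scale after adding 0.5 reads in proportion to depth, with exact Clopper-Pearson 95% intervals; CPM values have exact Poisson intervals. Both cover counting error only. With 1 library per condition no test was made. Groups follow the sample titles, where VM C and VM NF contradict their treatment entries. All 10 genes of the list were named, with the other genes of fixed pathway and marker lists given as counts and named where at 2-fold. The genes and lists were chosen with earlier results of these data known. Alternatives were TMM (edgeR 4.0.16), DESeq2 1.42.0 size factors, upper-quartile scaling, 5 or no reads added, other filters and 1.5-fold or 3-fold. Ratios and intervals were tested on counts simulated with counting error only, so PCR copies and variation between cultures were not covered. Calculations ran in R 4.3.3 and in Python 3.11.15 with scipy 1.17.1, numpy 2.4.6, matplotlib 3.10.9 and pandas 2.3.3.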

Additional observations from a re-analysis of the deposited data

How the results depend on the processing

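Each condition had 1 library, so variation between cultures was not measured and no replicate could be left out. No paired analysis was possible because no condition had a second library. Of 249 member ratios under other scalings and added reads, 230 stayed inside their counting interval and 19 did not. No ratio counted at 2-fold changed sign. In rounded values 8 others did, all within 0.09 of 0 and all under a scaling. Dkk3 in Ctx NPC against Ctx astrocytes, which rounds to 0.00, was not among these. It moved to −0.18 with TMM, −0.18 with DESeq2 size factors and −0.17 with upper-quartile scaling. The largest move was 0.19 under a scaling and 2.11 with 5 reads added, the latter for Wnt1, which had 3 reads or fewer in both libraries. In Ctx NPC against Ctx astrocytes the members' median log2 ratio became −0.92 with TMM, −0.92 with DESeq2 size factors, −0.91 with upper-quartile scaling and −0.35 with FPKM above 1 in both libraries, and that filter left 3 members counted. The median in Ctx against VM astrocytes was −0.39 with no filter, and that in VM NF against VM C was 0.88 with FPKM above 1 in both. With FPKM above 1 in both, 3 members were counted in VM NF against VM C and 3 in VM C against VM astrocytes. At 1.5-fold, 7 members were counted in VM C against VM astrocytes and 7 in VM NF against VM C. At 3-fold, 2 members were counted in each of these comparisons and 2 in Ctx against VM astrocytes. Wnt1 and Sfrp5, with 9 reads or fewer in every library, could not be ordered at this depth.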
